A study of Homo sapiens with 40 samples.

Results

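The endoplasmic reticulum (ER) folding and unfolded protein response genes described here were 32 genes, picked by symbol from the 60708 genes of the count tables. They fall into chaperones with their co-chaperones (9 genes), lectin chaperones (2), oxidative folding enzymes (6), sensors and transcription factors (5), ER-associated degradation (8) and the translocon (2). RNA was sequenced from 24 libraries in 8 groups of 3, and another 16 samples of the series (ATAC-seq, which maps open chromatin) were not analysed here. MI-spheres are 3D cultures, grown without attachment, of MCF-10A, a normal-like human mammary epithelial line, and MII-spheres are the same kind of culture of its HRAS-transformed derivative. Each was left unstimulated (Ctrl) or given 2.5 ng/ml TGFβ, a secreted growth factor, for 16 h. MDA-MB-231, a triple-negative breast cancer line, was grown as a monolayer in serum and compared as WT against SLUG KO, in which Cas9 was aimed at the start of SNAI2, the gene of the transcription factor SLUG. SLUG KO cells come from colonies of single cells. MDA-MB-231 cells transfected with scrambled siRNA (Csi) were compared with cells given siRNA against SMAD2, SMAD3 and SMAD4 (siSMAD2/3/4), the transcription factors that carry the TGFβ signal. By the labels, the siRNA libraries belong to another sequencing batch than the other 18.

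Secreted and membrane proteins enter the ER through the translocon, are held by chaperones while they fold, gain sugars that lectin chaperones read, and have their disulfide bonds formed by protein disulfide isomerases. Proteins that fail to fold are sent back to the cytosol and degraded. When unfolded proteins build up, the sensors IRE1α (gene ERN1), PERK (EIF2AK3) and ATF6 start the unfolded protein response: IRE1α splices XBP1 mRNA, ATF6 is cut to release a transcription factor, and PERK slows translation and favours ATF4. Cells with a heavy secretory load, as in mammary epithelium, keep many of these genes high. Gene counts measure RNA of the whole gene, so XBP1 splicing, ATF6 cleavage, protein and ER stress itself were not measured.

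The spliced XBP1 protein and ATF6 are known to bind short promoter elements, which tie the members to one another and are shown for this reason. The ER stress response element was searched as CCAAT and, after 9 bases of any kind, CCACG, and its second form, ERSE-II, as ATTGG and, after 1 base, CCACG, on both strands, in RefSeq windows (GRCh38.p14) that run from 250 bases before to 50 after each start. Of the members, 29 had such a window. The first element was in the windows of 8 of them (27.6%: CALR, CANX, CRELD2, ERO1B, HSP90B1, HSPA5, PDIA6 and XBP1), and in 25 of the 27305 genes with a window (0.0916%). ERSE-II was in those of HERPUD1, HYOU1 and SDF2L1 (10.3%, against 0.0696% of genes). The lines below give 6 of these sites 5′ to 3′ on the strand that matches the motif, with the fixed letters of the motif in capitals and 5 flanking bases on each side.
HSPA5, chr9:125241386-125241414, minus strand: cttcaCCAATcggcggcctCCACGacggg
XBP1, chr22:28800598-28800626, minus strand: gctggCCAATcgcggagggCCACGaccgt
HSP90B1, chr12:103930211-103930239, plus strand: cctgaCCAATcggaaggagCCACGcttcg
HYOU1, chr11:119057269-119057289, plus strand: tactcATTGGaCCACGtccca
HERPUD1, chr16:56932020-56932040, plus strand: cgccgATTGGgCCACGttggg
SDF2L1, chr22:21642109-21642129, minus strand: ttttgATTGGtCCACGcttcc

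All 6 sites lie before the RefSeq start of their gene. The nearest is that of XBP1, whose first base is 52 bases before it, and the farthest that of HSP90B1, at 194 bases. In the annotation used for counting HSP90B1 starts earlier, at chr12:103930107, so its site lies inside the gene there. HSPA5 and HSP90B1 encode the ER's main chaperones of the HSP70 and HSP90 families, HYOU1 a large relative of HSP70, HERPUD1 a membrane protein of ER-associated degradation and SDF2L1 a partner of HSPA5. HYOU1 was the only member with the letters TGACGTGG, the core of another element known as UPRE (3.45% of members, 0.927% of genes), and this run overlaps its other ERSE-II site. The CCAAT letters alone, which are part of the first element, were in 25 of the 29 windows (86.2%, against 39.7% of genes). A match says only that these letters are present.

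Total counts per library ran from 14124688 to 38406952, and the lowest count of any member other than DERL3 was 71 (SDF2L1 in an MII Ctrl library). DERL3, a derlin of ER-associated degradation, had 0 to 23 counts per library, and 77% of its exon length overlaps SMARCB1 on the other strand. Since strand was ignored in counting, reads in that stretch cannot be told apart by strand from those of the overlapping gene. This holds in part for PDIA6 (25.2% overlapped), PDIA3 (18.9%) and DNAJB11 (14.2%, with 9.345% on the other strand). Whether reads shared by overlapping genes were counted or dropped was not examined. The design checks moved in these libraries as follows: HRAS was higher in MII Ctrl than in MI Ctrl (log2 fold-change 2.45), and siSMAD2/3/4 lowered SMAD2, SMAD3 and SMAD4 (-1.92, -0.69 and -1.72). SNAI2 was higher, not lower, in the libraries labelled SLUG KO (log2 fold-change 1.11). A gene count does not show a small edit, so this checks neither the edit nor the label. Basal mammary markers summed to between 1230 and 4309 CPM (counts scaled to library size) in sphere libraries and to at most 43.6 in MDA-MB-231 libraries, with KRT5 at 0 counts in WT and SLUG KO. WT replicate 2 stands apart: its log2 CPM correlated across genes at 0.947 and 0.942 with the other WT libraries, which correlated at 0.995 with each other, and 2.40% of its counts were mitochondrial, against 0.812% and 0.657%.

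In TPM, a share of RNA in which counts are divided by gene length so that genes can be compared, CALR was the highest member in every group, from 452 TPM in MII Ctrl to 1858 TPM in SLUG KO (means of 3 libraries). CALR and CANX encode calreticulin and calnexin, the lectin chaperones that hold glycoproteins. PDIA4 and PDIA3, disulfide isomerases, came near the top in most groups, and HSPA5 reached 729 TPM in Csi. The sensor genes ERN1 (3.0 to 8.9 TPM) and EIF2AK3 (4.7 to 8.7 TPM) and the oxidase ERO1B (4.5 to 11 TPM) were near the bottom, above DERL3 (0.0746 to 0.588 TPM). These TPM were taken over protein-coding genes, a choice made after seeing the data, because the 7SL RNA gene RN7SL1 took between 30.7% and 54.6% of TPM over all genes in sphere libraries and between 0.00162% and 25.6% in MDA-MB-231 libraries.

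**Figure D1:**
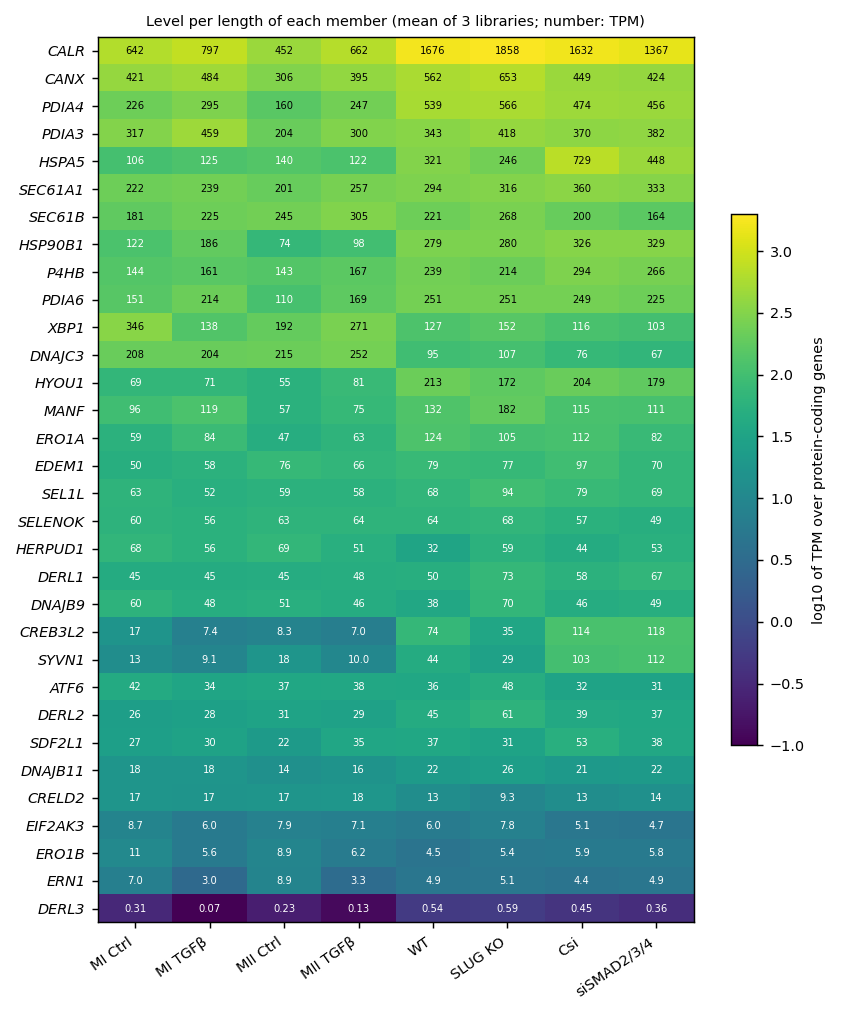
Mean level of the 32 members in each of the 8 groups, as log10 of TPM over protein-coding genes (colour) and as TPM (numbers); rows are members ordered by level and columns are groups of 3 libraries. CALR is the brightest row in every group, from 452 to 1858 TPM, and DERL3 is below 1 TPM throughout.

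The members together made up 0.384% ± 0.00578 (SD, n = 3) of coding TPM in MI Ctrl and 0.427% ± 0.00549 in MI TGFβ. In MII Ctrl the share was 0.314% ± 0.00115, the lowest of the 8 groups, and in MII TGFβ it was 0.397% ± 0.00676. In MDA-MB-231 it was 0.603% ± 0.0228 in WT, 0.649% ± 0.0249 in SLUG KO, 0.648% ± 0.0241 in Csi and 0.568% ± 0.0123 in siSMAD2/3/4. Of the 32 members, 23 had their highest mean in an MDA-MB-231 group on this scale, as on CPM over all 24 libraries. In TPM, 13 of them were highest in SLUG KO and 2 in WT. How many of all genes were highest in these groups was not counted, so the 23 cannot be read against a background. Line and culture, and for the siRNA groups also the batch, differ from those of the spheres and cannot be told apart. The widest range was that of CREB3L2, a membrane-bound transcription factor, 17.3 times higher in siSMAD2/3/4 than in MII TGFβ (CPM over 24 libraries). SYVN1, the ubiquitin ligase of ER-associated degradation, spanned 11.5 times between the same groups. HSPA5 spanned 7.31 times, in the order Csi, siSMAD2/3/4, WT, SLUG KO, MI TGFβ, MII TGFβ, MII Ctrl and MI Ctrl, where WT overlapped SLUG KO and MII TGFβ overlapped MII Ctrl. ATF6, at 1.43 times, and SELENOK, a selenoprotein of the ER membrane, at 1.29 times, varied little.

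TGFβ stimulation of MI-spheres raised most folding genes and lowered the sensors and transcription factors, of which ATF6 fell least and least firmly. Of 31 members tested, 18 rose (58.1%) and 7 fell (22.6%), in the quasi-likelihood test of edgeR at a Benjamini-Hochberg adjusted p under 0.05, where 28.7% of all 16863 genes tested rose and 27.4% fell. Among genes with a mean of at least 10 CPM, a background chosen after seeing the data, 41.4% rose and 24.7% fell. The members' median log2 fold-change was 0.19, against -0.02 over all genes. DERL3 had too few counts to be tested in spheres. In bulk RNA, fewer cells of a type and less RNA per cell cannot be told apart.

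The chaperones and co-chaperones held 6 of 9 members that rose in MI-spheres and none that fell. HSP90B1 had 346, 354 and 329 CPM in MI Ctrl and 583, 577 and 631 CPM in MI TGFβ, on the scale of the 12 sphere libraries. Its groups did not overlap, and its log2 fold-change was 0.78 ± 0.053 (SE; edgeR adjusted p = 7.81e-11). HSPA5 had 153, 148.5 and 145 CPM without and 224, 188.5 and 186 CPM with TGFβ. It was higher in all 3 stimulated libraries, of which replicate 1 was highest, and rose by 0.40 ± 0.063 (edgeR adjusted p = 1.83e-05). HYOU1, DNAJB11 and DNAJC3, of which the last 2 are co-chaperones of HSPA5, and MANF, an ER-resident secreted factor, were the other members that rose (0.14 to 0.47). DNAJC3, the smallest of them, was not higher in coding TPM (208 and then 204). HYOU1 (69.1 and then 70.5) and DNAJB11 (17.58 and then 17.65) hardly changed on that scale. The call for DNAJC3 was lost without any of 5 libraries in turn (0.08 to 0.16; it held without MI TGFβ replicate 2), and that of DNAJB11 without MI Ctrl replicates 1 or 3 or MI TGFβ replicate 3 (0.11 to 0.19). SDF2L1 (0.33), CRELD2 (0.12) and DNAJB9 (-0.14) did not pass.

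Both lectin chaperones rose in MI-spheres (CALR 0.48, CANX 0.36), as did 5 of the 6 oxidative folding genes and both translocon genes, SEC61B (0.48) and SEC61A1 (0.27), subunits of the channel. PDIA3 rose by 0.70 ± 0.052 (edgeR adjusted p = 4.13e-10), PDIA6 by 0.66 ± 0.059 (5.68e-09) and ERO1A, the oxidase that recharges the disulfide isomerases, by 0.68 ± 0.064 (1.18e-08). ERO1B, a second such oxidase, fell by 0.74 ± 0.11 on the log2 scale (edgeR adjusted p = 1.40e-05). Of the ER-associated degradation genes, EDEM1, which marks glycoproteins for disposal (0.38), DERL2 (0.29) and DERL1 (0.16) rose and SYVN1 (-0.34) fell, and the other 3 tested did not pass. DERL1 was not higher in coding TPM (45.0 and then 44.8), and its call was lost without MI Ctrl replicate 3 or MI TGFβ replicates 1 or 3 (0.09 to 0.19) and that for SYVN1 without MI Ctrl replicate 2 or MI TGFβ replicate 3 (-0.30 and -0.19).

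The regulators went the other way in MI-spheres. XBP1 had 228, 216 and 231 CPM in MI Ctrl and 105.03, 97.8 and 103.1 CPM in MI TGFβ. All stimulated libraries were far below all unstimulated ones, with a log2 fold-change of -1.17 ± 0.053 (edgeR adjusted p = 9.25e-14). ERN1, the IRE1α gene, had 29.6, 28.2 and 29.2 CPM without and 13.5, 14.2 and 14.01 CPM with TGFβ. It fell by 1.08 ± 0.077 on the log2 scale (edgeR adjusted p = 1.74e-10). CREB3L2 went from 32.4, 30.1 and 31.5 CPM to 19.1, 15.1 and 13.6 CPM, a fall of 1.01 ± 0.096 (edgeR adjusted p = 1.81e-08). These 3 were the only members with a change of over 1 on the log2 scale here, where 9.92% of all genes fell and 3.64% rose by as much. EIF2AK3, the PERK gene, had 40.03, 38.3 and 38.1 CPM without and 28.0, 30.1 and 33.0 CPM with TGFβ (log2 fold-change -0.37, edgeR adjusted p = 1.43e-04). ATF6, with 130.3, 129.7 and 125.5 CPM without and 119.2, 110.7 and 127.5 CPM with TGFβ, overlapped between the groups and had a log2 fold-change of -0.13 (edgeR adjusted p = 0.0496). This call was lost under 11 of 15 alternatives, among them leaving out any library but MI TGFβ replicate 3 (-0.14 to -0.07).

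**Figure D2:**
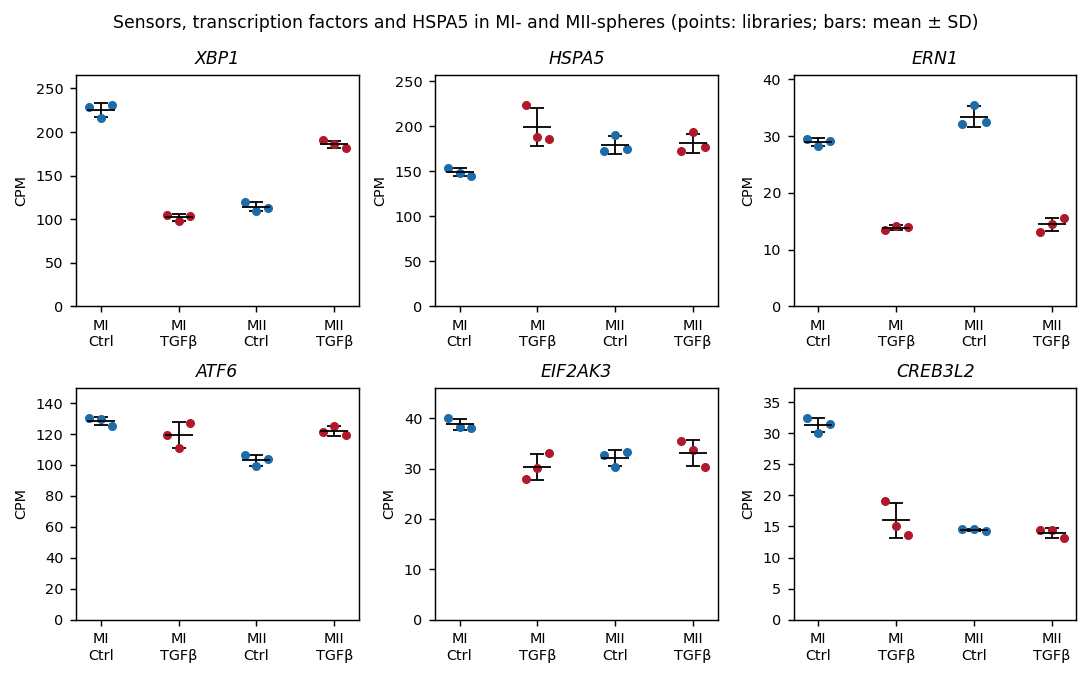
CPM (y axis, from 0) of XBP1, HSPA5, ERN1, ATF6, EIF2AK3 and CREB3L2 in the 12 sphere libraries; points are libraries and bars the mean ± SD of 3. XBP1 fell with TGFβ in MI-spheres (log2 fold-change -1.17) and rose in MII-spheres (0.68), whereas ERN1 fell in both.

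TGFβ stimulation of MII-spheres raised 21 members, XBP1 among them, and left HSPA5 without a detectable change. Of 31 members tested, 21 rose (67.7%) and 4 fell (12.9%), where 29.9% of all 16396 genes tested rose and 27.6% fell, and 42.9% and 23.4% of those with a mean of at least 10 CPM. The median log2 fold-change was 0.36 over the members and -0.02 over all genes. With upper-quartile scaling, 39.5% of all calls were higher, against 52.0% with TMM, the scaling used elsewhere here, and 18 members rose and 6 fell.

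Chaperones and co-chaperones rose in 7 of 9 cases in MII-spheres, SDF2L1 (0.85) and HYOU1 (0.73) the most. HYOU1 had 85.4, 84.1 and 82.2 CPM in MII Ctrl and 139.4, 140.2 and 149 CPM in MII TGFβ, with no overlap. HSPA5 had 172, 190.6 and 174 CPM without and 173, 193 and 177 CPM with TGFβ, which overlap throughout (log2 fold-change -0.02 ± 0.043, edgeR adjusted p = 0.689). CALR had 250.9, 245.5 and 250.6 CPM without and 426, 416 and 420.4 CPM with TGFβ, the smallest adjusted p of the members (0.73 ± 0.035, edgeR adjusted p = 2.52e-24). PDIA4 (0.80 ± 0.042, edgeR adjusted p = 5.85e-23), PDIA6 (0.80 ± 0.043, 2.97e-22) and PDIA3 (0.74 ± 0.039, 1.08e-22) rose by nearly the same amount. SEC61A1 rose by 0.53 and SEC61B by 0.49.

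XBP1 had 119.8, 109.8 and 113 CPM in MII Ctrl and 190.4, 186 and 182 CPM in MII TGFβ. It rose in MII-spheres, with no overlap, by 0.68 ± 0.042 (edgeR adjusted p = 6.91e-20). ATF6 rose as well, from 106.4, 99.1 and 103.6 CPM to 121.15, 125.5 and 119.6 CPM (log2 fold-change 0.22). ERN1 fell as it did in MI-spheres, from 32.2, 35.5 and 32.5 CPM to 13.2, 14.5 and 15.6 CPM. Its log2 fold-change was -1.25 ± 0.079 (edgeR adjusted p = 1.85e-19), and it was the only member here with a change of over 1, where 7.5% of all genes fell and 3.12% rose by as much. EIF2AK3, with 32.7, 30.3 and 33.3 CPM without and 35.4, 33.7 and 30.3 CPM with TGFβ, and CREB3L2, with 14.5, 14.5 and 14.3 CPM without and 14.4, 14.5 and 13.1 CPM with TGFβ, did not pass (log2 fold-changes 0.02 and -0.08). Of the degradation genes, DERL1 (0.25), SELENOK (0.18) and SEL1L, the partner of SYVN1 (0.15, though 58.8 and then 57.5 in coding TPM), rose, while SYVN1 fell by 0.64 (edgeR adjusted p = 3.83e-08) and HERPUD1 by 0.26 (4.35e-05). ERO1B fell by 0.35 (edgeR adjusted p = 0.0105), a call that was lost without MII TGFβ replicate 1 (-0.29, 0.0662). The call for SELENOK was lost without MII Ctrl replicate 3 or MII TGFβ replicates 1 or 2 (0.14 to 0.18), and that for CRELD2, a disulfide isomerase-like ER protein, without MII TGFβ replicate 1 (0.20). In coding TPM SELENOK hardly changed (63.4 and then 63.6).

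**Figure D3:**
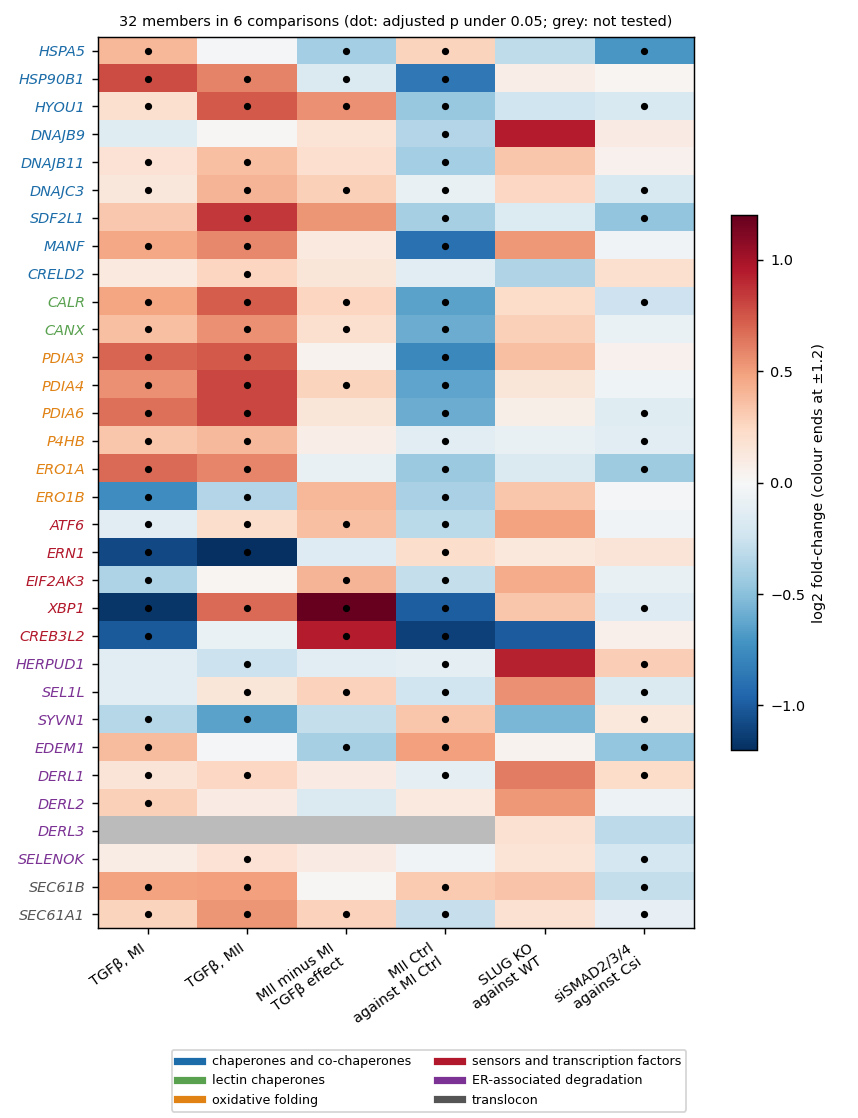
Log2 fold-change of the 32 members (rows, names coloured by role) in 6 comparisons (columns), red above and blue below 0 with the colour ending at 1.2 on either side; a black dot marks an adjusted p under 0.05 and grey a member that was not tested. PDIA3, PDIA4, PDIA6 and the lectin chaperones are red in the first 2 columns (TGFβ in each line) and blue in the fourth (MII Ctrl against MI Ctrl), and XBP1 changes from blue to red between the lines, its difference of 1.85 lying past the end of the colour scale.

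Set side by side, 15 members rose in both lines: HSP90B1, HYOU1, DNAJB11, DNAJC3, MANF, CALR, CANX, PDIA3, PDIA4, PDIA6, P4HB, ERO1A, DERL1, SEC61B and SEC61A1. ERO1B, ERN1 and SYVN1 fell in both, and XBP1 and, with the weak call given above, ATF6 fell in MI-spheres and rose in MII-spheres. DNAJB9 passed in neither. How many of all genes rose or fell in both lines was not counted, so these counts cannot be read against a background. The difference between the lines was tested as an interaction in 1 fit of the 12 sphere libraries, in which a value is the log2 fold-change in MII-spheres minus that in MI-spheres. It was positive and past the threshold for 11 of 31 members and negative for 3, where 12.6% of all 18591 genes tested were positive and 9.75% negative (18.7% and 14.3% of those with a mean of at least 10 CPM). XBP1 had the largest difference, 1.85 ± 0.068 (edgeR adjusted p = 1.26e-22), and was the only member past 1 in either direction, where 3.75% of all genes were past 1 and 2.09% past -1. Its 4 groups did not overlap on the scale of the 12 sphere libraries: MI Ctrl was highest, then MII TGFβ, MII Ctrl and MI TGFβ.

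Of the sensors and transcription factors, 4 of 5 had a more positive response in MII-spheres: XBP1, CREB3L2 (0.94 ± 0.13, edgeR adjusted p = 7.83e-07), EIF2AK3 (0.40) and ATF6 (0.36 ± 0.073, 2.36e-04). For ERN1 the difference was -0.16 ± 0.11 and did not pass. HYOU1 responded more in MII-spheres (0.55 ± 0.069, edgeR adjusted p = 5.41e-08), and HSPA5 (-0.41 ± 0.081, 1.73e-04), EDEM1 (-0.40 ± 0.076, 1.05e-04) and HSP90B1 (-0.18 ± 0.066, 0.0463) responded less. The call for HSP90B1 was lost under 7 of 20 alternatives, among them without MI Ctrl replicate 3, MII Ctrl replicates 1 or 3 or MII TGFβ replicate 3 (-0.20 to -0.14). CALR, CANX, DNAJC3, PDIA4, SEL1L and SEC61A1 made up the rest of the positive ones (0.19 to 0.28). That of CANX was lost under 10 alternatives, 9 of which left out 1 library each (0.11 to 0.17; it held without MII Ctrl replicates 1 or 3 and without MI TGFβ replicate 3), that of SEL1L without MI TGFβ replicate 2 or MII TGFβ replicate 2 (0.19 and 0.22), and that of DNAJC3 without MII TGFβ replicate 2 (0.22). PDIA3 (0.05 ± 0.066), P4HB, the beta subunit of prolyl hydroxylase and a disulfide isomerase (0.08 ± 0.062), and SEC61B (0.01 ± 0.089) did not pass.

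**Figure D4:**
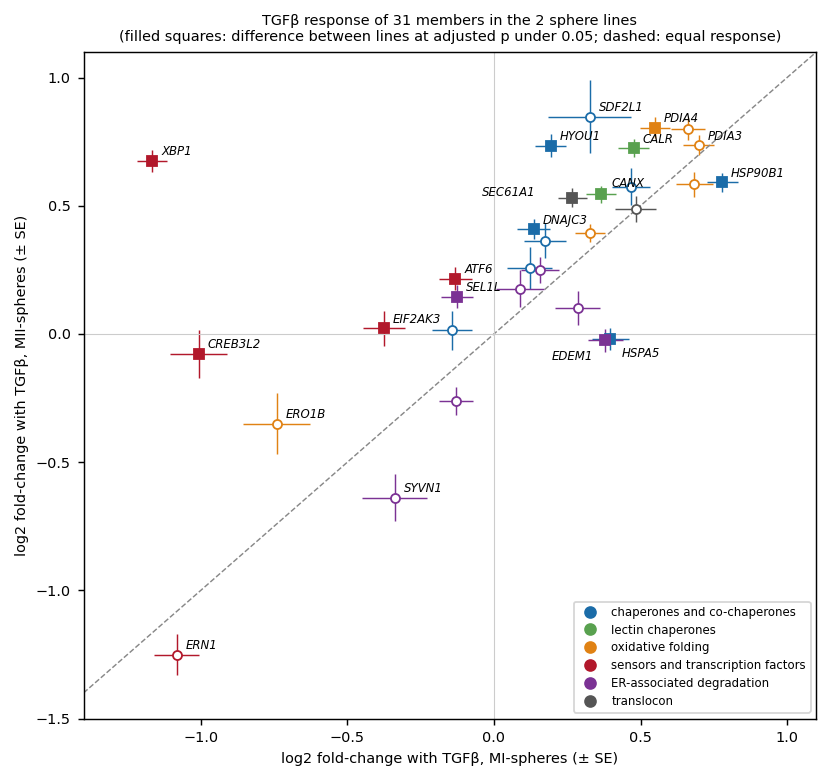
Log2 fold-change with TGFβ in MI-spheres (x axis) against that in MII-spheres (y axis), 1 point for each of the 31 members tested; filled squares had a difference between the lines at an adjusted p under 0.05. XBP1, at -1.17 in MI-spheres and 0.68 in MII-spheres, stands farthest from the diagonal.

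Values that moved along with TGFβ in these libraries include the basal mammary markers (7 genes), whose summed level was 2213 to 2271 CPM in MI Ctrl and 3973 to 4309 in MI TGFβ, and 1230 to 1284 in MII Ctrl and 2680 to 2807 in MII TGFβ. The 5 luminal mammary markers summed to 1185 to 1223 CPM in MI Ctrl and 1405 to 1495 in MI TGFβ. In MII-spheres they summed to 2233 to 2290 and 2694 to 2848. In each line 2 of them were called higher and 1 lower. The 7 immune and endothelial markers summed to 31.3 to 34.7 CPM and 13.4 to 14.8 CPM in MI-spheres, and to 114.3 to 117 and 96.3 to 108.1 in MII-spheres, with PTPRC at 0 counts in MI Ctrl. The 7 mesenchymal markers summed to 92.6 to 98.4 CPM in MI Ctrl and 318 to 345 in MI TGFβ (6 called higher), and to 162 to 166 in MII Ctrl and 190 to 208 in MII TGFβ (3 called higher). The 6 fibroblast markers summed to 20.9 to 22.9 CPM in MI Ctrl and 38.5 to 41.0 CPM in MI TGFβ, and to at most 10.7 CPM in MII Ctrl and 5.08 CPM in MII TGFβ. Mitochondrial counts made up 0.687% to 0.789% in MI Ctrl and 0.423% to 0.572% in MI TGFβ, and 1.42% to 1.66% in MII Ctrl and 1.02% to 1.18% in MII TGFβ. RN7SL1, the 7SL RNA gene, took 3.36% to 3.79% of counts in MII Ctrl and 5.99% to 6.61% in MII TGFβ. Its share was 7.44% to 9.34% in MI Ctrl and 8.30% to 9.49% in MI TGFβ, which overlap. The part of these in the members' changes was not tested.

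Unstimulated MII-spheres had lower folding genes than unstimulated MI-spheres. Of 31 members, 23 were lower in MII Ctrl (74.2%) and 5 higher (16.1%), where 32.5% of all 17862 genes tested were lower and 31.7% higher, and 43.8% and 32.4% of those with a mean of at least 10 CPM. The members' median was -0.33, against 0.02 over all genes. MII Ctrl is also the control of the MII stimulation, and MI Ctrl that of the MI stimulation, so these comparisons share libraries.

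All 6 oxidative folding genes and both lectin chaperones were lower in MII Ctrl. PDIA3 had 286, 285 and 293 CPM in MI Ctrl and 167.5, 162 and 178.5 CPM in MII Ctrl (-0.77 ± 0.038, edgeR adjusted p = 6.13e-25). HSP90B1, at 189.8, 181 and 198 CPM in MII Ctrl, was lower (-0.86 ± 0.038, edgeR adjusted p = 4.36e-27), as were CANX (-0.59 ± 0.033, 1.91e-22) and XBP1 (-0.99 ± 0.040, 9.66e-29). CREB3L2 was the only member past 1 (-1.12), where 7.62% of all genes were lower and 12.5% higher by as much. The members that were higher in MII Ctrl came from several roles: EDEM1 (0.49 ± 0.045, edgeR adjusted p = 3.35e-14), HSPA5 (0.27 ± 0.040, 7.74e-08), SEC61B (0.31 ± 0.055, 1.57e-06), SYVN1 (0.33 ± 0.080, 3.12e-04) and ERN1 (0.21). CRELD2, DERL2 and SELENOK did not pass. The call for ERN1 was lost under 4 of 15 alternatives: DESeq2 (0.18), the gene-length trend without and with the replicate block (0.11 in both) and leaving out MII Ctrl replicate 2 (0.15). Of the lower members, the calls of DERL1, HERPUD1, DNAJC3 and SDF2L1 were each lost under 3 to 9 of 15 alternatives (-0.43 to -0.06), including, for at least 1 of them, leaving out MI Ctrl replicates 1 or 2 or any MII Ctrl library. In coding TPM DNAJC3 (208 and 215), DERL1 (45.0 and 45.5) and HERPUD1 (68.3 and 69.3) were slightly higher, not lower, in MII Ctrl.

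Knockdown of SMAD2, SMAD3 and SMAD4 in MDA-MB-231 lowered HSPA5 and a part of the other members. Of 32 tested, 14 fell and 3 rose (edgeR), where 19.7% of all 17696 genes tested fell and 16.3% rose, and 29.1% and 22.1% of those with a mean of at least 10 CPM. The median was -0.08 over the members and 0.00381 over all genes. With upper-quartile scaling 11 members fell and 7 rose, and 56.2% of all calls were higher, against 45.3% with TMM. By the file headers siSMAD2/3/4 replicates 1 and 2 ran on another flow cell. With the flow cell as a term, the knockdown effect rests on siSMAD2/3/4 replicate 3 alone against Csi. Fewer members were called lower in that fit, but its calls rest on 1 knockdown library and are not counted here. In it DNAJB9 was at 0.24 and SYVN1 at 0.09.

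HSPA5 had 1091, 1137 and 1147 CPM in Csi and 696, 696 and 694 CPM in siSMAD2/3/4. The knockdown libraries lay far below and close together (-0.69 ± 0.037, edgeR adjusted p = 1.10e-15). With the flow cell as a term, which leaves siSMAD2/3/4 replicate 3 alone against Csi, the value was -0.70. EDEM1, with 147, 161 and 154 CPM in Csi and 107.4, 115 and 111.7 CPM in siSMAD2/3/4, fell by 0.47 ± 0.044 (edgeR adjusted p = 3.66e-10). ERO1A fell by 0.43 ± 0.041 (edgeR adjusted p = 5.77e-10) and CALR by 0.25 ± 0.040 (9.81e-06), and none of these groups overlapped. SDF2L1 (-0.47), HYOU1 (-0.19), DNAJC3, PDIA6, P4HB, SEL1L, SELENOK, SEC61B and SEC61A1 were the other members that fell, together with XBP1. The call for SEC61A1 was lost under 11 of 15 alternatives, 5 of them leaving out any library but Csi replicate 1 (-0.11 to -0.08), that for SELENOK without Csi replicate 3 or siSMAD2/3/4 replicate 2 (-0.13 and -0.18), and that for DNAJC3 without Csi replicate 2 (-0.12). With the flow cell as a term SEC61A1, SELENOK, DNAJC3, PDIA6 and SEL1L did not pass (-0.19 to -0.12), in a fit that rests on siSMAD2/3/4 replicate 3.

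Among the regulators, XBP1 had 80.8, 83.3 and 84.1 CPM in Csi and 75.4, 75.2 and 72.3 CPM in siSMAD2/3/4 (-0.15 ± 0.045, edgeR adjusted p = 7.47e-03), and it was the only regulator called, though not with upper-quartile scaling (-0.11, 0.0513). ATF6 had 108.5, 110.97 and 102.5 CPM in Csi and 104.7, 103.2 and 105.7 CPM in siSMAD2/3/4. ERN1 had 20.1, 21.1 and 19.0 CPM and then 21.0, 23.7 and 22.3 CPM, and EIF2AK3 25.7, 24.6 and 24.01 CPM and then 21.7, 24.3 and 23.98 CPM. These 3 sensors did not pass. CREB3L2, with 243, 236 and 234 CPM in Csi and 242, 246 and 255 CPM in siSMAD2/3/4, also did not. HERPUD1 rose from 51.6, 51.8 and 52.9 CPM to 63.0, 65.0 and 63.8 CPM (0.29 ± 0.049, edgeR adjusted p = 1.13e-05). DERL1 rose by 0.22 ± 0.044 (edgeR adjusted p = 2.22e-04) and SYVN1 by 0.13 ± 0.047 (0.0299). The latter call was lost with the flow cell as a term (0.09) and without either of Csi replicates 2 and 3 and of siSMAD2/3/4 replicates 1 and 2 (0.09 to 0.14).

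No member was called in SLUG KO against WT with all 6 libraries (0 of 32 by edgeR, where 1.45% of all 17428 genes were higher and 1.89% lower, and 1.45% and 0.786% of those with a mean of at least 10 CPM). At an unadjusted p under 0.05, 4 members were higher and 0 lower (8.0% and 11.1% of all genes), and DESeq2 called 1, HERPUD1 (0.97, adjusted p = 5.47e-03). The outcome turned on WT replicate 2. Without it 12 members were higher and 1 lower, where 16.8% and 14.4% of all genes were called, and limma voom with sample weights, which keeps that library at a lower weight, called 10 higher and 0 lower (15.3% and 14.9%). For these fits the share among genes with a mean of at least 10 CPM was not counted. HERPUD1 had 36.0, 29.4 and 42.1 CPM in WT and 64.5, 65.1 and 74.2 CPM in SLUG KO, without overlap (0.92 ± 0.19 with all libraries, edgeR adjusted p = 0.0509, and 0.81 ± 0.11 without WT replicate 2, 3.04e-05). The others that were higher without that library were DNAJB9, a co-chaperone (0.67), ERN1 (0.41), SYVN1 (0.38), MANF (0.35), ATF6 (0.34), CALR, DERL1 and SEL1L (each 0.33), PDIA3 (0.32), SEC61A1 (0.31) and EIF2AK3 (0.28), and ERO1A was lower (-0.23).

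Single values show how far WT replicate 2 lay from its group. CREB3L2 had 91.3, 274 and 53.6 CPM in WT and 69.6, 66.4 and 73.8 CPM in SLUG KO (-0.998 ± 0.54, edgeR adjusted p = 0.364). HSPA5 had 350.5, 683.5 and 327 CPM in WT and 324, 405 and 369 CPM in SLUG KO. In both genes the second WT library was the highest of the 6, and the log2 fold-change of HSPA5 went from -0.31 ± 0.31 (edgeR adjusted p = 0.613) to 0.12 without it. XBP1 had 86.2, 69.4 and 94.4 CPM in WT and 99.5, 105.3 and 109.7 CPM in SLUG KO (0.33 ± 0.18, edgeR adjusted p = 0.357). ATF6 had 126.5, 85.3 and 123 CPM in WT and 152, 149.9 and 167 CPM in SLUG KO, and EIF2AK3 31.6, 20.1 and 29.5 CPM and then 35.7, 34.9 and 40.1 CPM. These groups did not overlap. ERN1, with 17.9, 27.4 and 15.8 CPM in WT and 20.8, 20.9 and 25.0 CPM in SLUG KO, did overlap.

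**Figure D5:**
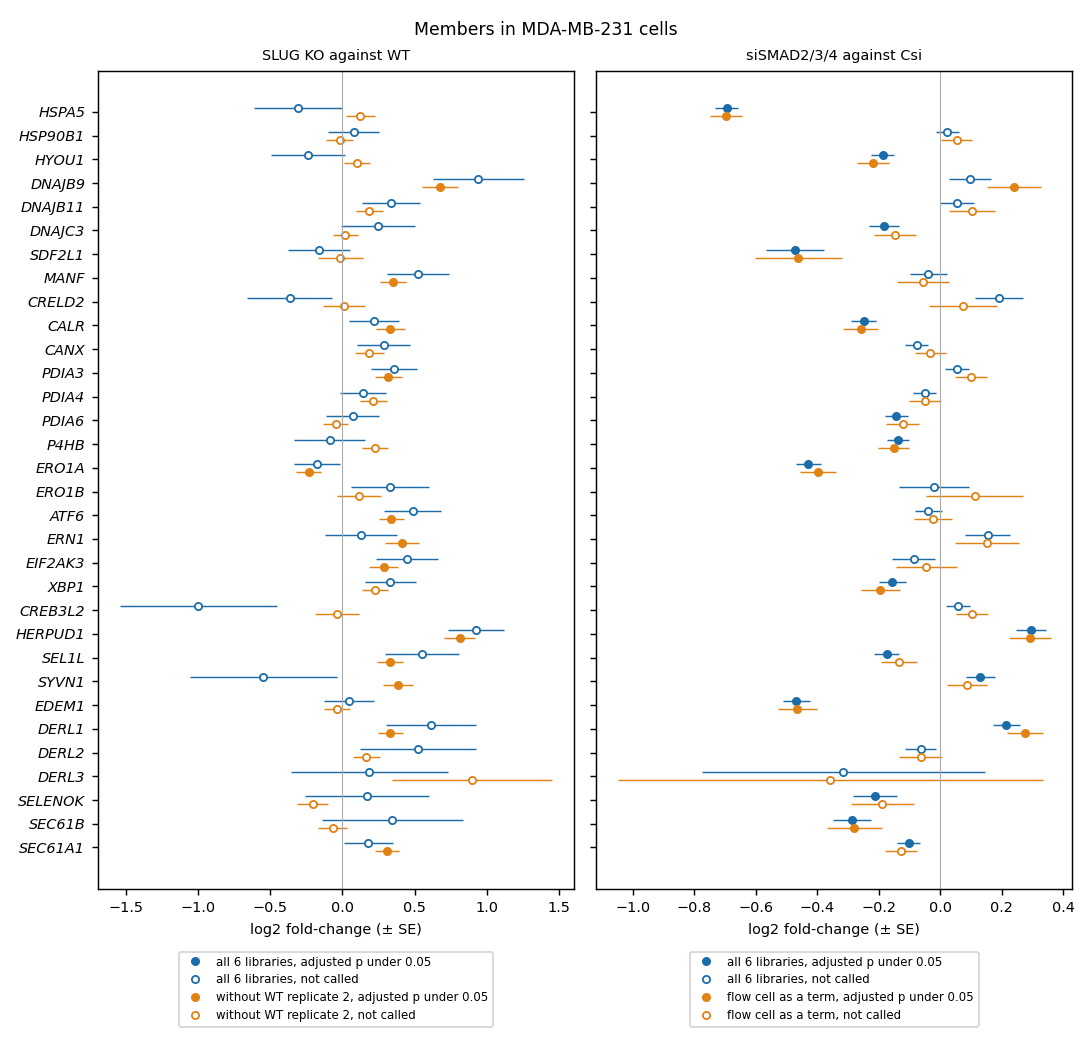
Log2 fold-change ± SE (x axes) of the 32 members in SLUG KO against WT (left, all 6 libraries and without WT replicate 2) and in siSMAD2/3/4 against Csi (right, without and with flow cell as a term); filled points passed an adjusted p of 0.05. The fit with flow cell as a term rests on siSMAD2/3/4 replicate 3 alone against Csi. No member is filled on the left with all 6 libraries, and HSPA5, at -0.69, lies farthest left on the right.

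Of the 11 members with an ER stress response element in either form in their window, 6 rose and 2 fell with TGFβ in MI-spheres (median log2 fold-change 0.33), and 10 and 5 of the other 18 with a window (0.15), where 41.4% and 24.7% of all genes with a mean of at least 10 CPM did. In MII-spheres 8 of the 11 rose and 2 fell (median 0.59), and 11 and 2 of the 18 (0.20), against 42.9% and 23.4% of such genes. The 11 were lower in MII Ctrl than in MI Ctrl in 9 cases and higher in 1, and the 18 in 12 and 4, against 43.8% and 32.4%. With siSMAD2/3/4, 6 of the 11 fell and 1 rose, and 8 and 1 of the 18, against 29.1% and 22.1%. Both sets held genes of either direction: of the members whose sites are printed above, HSPA5 rose and XBP1 fell in MI-spheres.

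Other genes of the pathway were taken from lists compiled by function. Genes of translocation, signal peptidase and N-glycosylation rose in 27 of 30 cases with TGFβ in either line and fell in none (median 0.36 in MI- and 0.38 in MII-spheres), among them SEC61G, the third subunit of the channel (0.91 and 0.80), and SEC11C, a signal peptidase subunit (0.82 in MII-spheres). Of all genes with a mean of at least 10 CPM, 41.4% rose and 24.7% fell in MI-spheres, and 42.9% and 23.4% in MII-spheres. Other ER chaperones and oxidoreductases rose in 18 of 28 cases in MI-spheres and fell in 2, and rose in 21 and fell in 3 in MII-spheres, with FKBP7, a prolyl isomerase, at 0.997 and 0.83, PRDX4, an ER peroxiredoxin, at 1.03 in MI-spheres and CRELD1, a relative of CRELD2, at -1.05 in MII-spheres. Genes of ER exit in COPII vesicles, which carry cargo to the Golgi, rose in 13 and fell in 5 of 21 in MI-spheres, and in 15 and 1 in MII-spheres. Other quality control and degradation genes rose in 11 and 15 of 24 and fell in 3 and 1. Cytosolic heat shock genes rose in 7 and 8 of 12 and fell in 2 and 3, with HSPB1 at 0.83 and 0.51 and HSPA1B at -0.60 in MII-spheres.

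The list of other signalling genes of the unfolded protein response, which holds the ATF4 and CHOP branch, had more genes that fell than rose. With TGFβ 4 of them rose and 9 fell of 16 in MI-spheres, and 3 rose and 6 fell of 15 in MII-spheres. Of all genes tested, 28.7% rose and 27.4% fell in MI-spheres, and 29.9% and 27.6% in MII-spheres. Log2 fold-changes in the list ran from -2.78 to 1.65 in MI-spheres and from -1.66 to 0.252 in MII-spheres. CHAC1, a glutathione-degrading target of ATF4, had the largest falls (-2.78 and -1.66), followed by PPP1R15A, which restores translation (-1.74 and -1.05). DDIT3, the gene of CHOP, fell by 0.81 in MI-spheres (edgeR adjusted p = 4.93e-04) and by 0.91 in MII-spheres (1.51e-06). ATF4 had a log2 fold-change of 0.07 in MI-spheres (edgeR adjusted p = 0.236) and fell by 0.34 in MII-spheres (8.22e-12), and the lines differed (interaction -0.41). In MII Ctrl against MI Ctrl 9 of 16 were higher and 3 lower, with DDIT3 at 0.75 and ATF4 at 0.27. Of all genes tested there, 31.7% were higher and 32.5% lower.

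The remaining lists were lower in MII Ctrl than in MI Ctrl in 17 of 21 cases for ER exit, 17 of 30 for translocation and glycosylation, 12 of 24 for quality control, 13 of 28 for other ER chaperones and 6 of 12 for heat shock, and higher in 2, 6, 3, 10 and 3, where 43.8% of all genes with a mean of at least 10 CPM were lower and 32.4% higher. FKBP10, a collagen-modifying prolyl isomerase, was 4.92 higher on the log2 scale. With siSMAD2/3/4, genes that fell outnumbered those that rose in each list: 13 against 2 of 29 for other ER chaperones, 12 against 0 for quality control, 10 against 1 for translocation and glycosylation, 8 against 4 for ER exit, 9 against 0 for heat shock and 6 against 4 of 17 for other signalling genes. Falls also outnumbered rises among all genes with a mean of at least 10 CPM (29.1% against 22.1%). STT3B, a catalytic subunit of the oligosaccharyltransferase, fell by 0.68 and TXNDC12, a thioredoxin-like ER protein, by 0.76. In SLUG KO against WT, 0 of 133 genes of these 6 lists were called by edgeR, where 1.45% of all genes were higher and 1.89% lower. At an unadjusted p under 0.05, 9 were higher and 4 lower, where 8.0% and 11.1% of all genes were. This fit includes WT replicate 2, on which the calls of members turned, and the lists were not counted without that library.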

How the data were processed

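Reads were trimmed by the authors (Trimmomatic), mapped to GRCh38 with STAR and, as fragments over exons of GENCODE 38 genes, counted with featureCounts (Subread 2.0.0; minimum mapping quality 30, strand ignored). The deposited tables hold raw counts of 1 library each, without normalization. Gene symbols came from a later GENCODE annotation of the same genome, with 60463 genes named (99.6%). Overlaps were taken from the exon positions used for counting. Groups came from the labels. The study states independent biological repeats for its results in general, but the labels do not tie the libraries of a group to separate cultures, so p-values measure the spread between these libraries, part of which may be technical.

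A comparison used the 6 libraries of its groups (12 for the interaction) and was fitted in R 4.3.3 with edgeR 4.0.16: filterByExpr, TMM scaling, quasi-likelihood test and Benjamini-Hochberg adjustment over all genes tested, with an adjusted p under 0.05 as the threshold. SE is the log2 fold-change divided by the root of the F statistic. Sphere CPM are from the 12-library fit and MDA-MB-231 CPM from each 6-library fit. Levels were planned as TPM over all genes and are printed as TPM over protein-coding genes. The tests were tried on simulated data. Members and gene lists were chosen with earlier results of these data known. Values in every library are given for HSPA5, XBP1, the 3 sensors and members that changed by over 1 on the log2 scale, and fold-changes with errors for the 4 members of lowest adjusted p among those higher and among those lower; other members are named beside their role, after their values were seen. For the other lists at most the 2 genes with the largest changes are named, always with ATF4 and DDIT3. Alternatives used DESeq2 1.42.0, limma 3.58.1, 2 other scalings, 2 other filters, a gene-length trend, a replicate block, a joint fit of the 12 sphere libraries, a term for flow cell and leaving out each library. The background of genes with a mean of at least 10 CPM and the protein-coding TPM were chosen after seeing the data.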

Additional observations from a re-analysis of the deposited data

Results flagged for a closer look

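The response to TGFβ differed between MI- and MII-spheres for 14 members, by the interaction term in edgeR's quasi-likelihood fit at an adjusted p under 0.05. The log2 fold-change in MII-spheres minus that in MI-spheres was 1.85 for XBP1, 0.94 for CREB3L2, 0.55 for HYOU1, 0.40 for EIF2AK3 and 0.36 for ATF6. It was 0.28 for DNAJC3 and for SEL1L, 0.27 for PDIA4 and for SEC61A1, 0.26 for CALR and 0.19 for CANX. For HSPA5 it was -0.41, for EDEM1 -0.40 and for HSP90B1 -0.18. In XBP1 and ATF6 the responses had opposite signs, past the threshold in each line, although the fall of ATF6 in MI-spheres lost its call under 11 of 15 alternatives. The interaction was called positive for 12.6% and negative for 9.75% of all genes tested. With 3 libraries per group, outlying libraries were not tested for.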

How the results depend on the processing

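Of the calls of members in the 6 comparisons, 84 held under every alternative run and 25 were lost under at least 1. In these alternatives changes of sign concerned members that were not called, whereas 6 calls had the other direction in mean TPM over protein-coding genes, as given beside the results. HSPA5 in MII-spheres (-0.02) was 0.0171 with DESeq2, 0.0147 without a low-count filter, 0.0129 in the 12-library fit, 0.0313 without MII Ctrl replicate 2, 0.0170 without MII TGFβ replicate 1 and 0.00779 without MII TGFβ replicate 3 (leaving out each library gave -0.0608 to 0.0313), and -0.11 (called) with upper-quartile scaling. In SLUG KO (-0.31) it was 0.0650 with voom weights and 0.125 without WT replicate 2 (range -0.472 to 0.125). EIF2AK3 in MII-spheres (0.02) was -0.0651 with upper-quartile scaling and -0.0168 with at least 10 counts in every library, and -0.0253 to 0.0940 leaving out each library. ERN1 in SLUG KO was -0.000493 to 0.413 leaving out each library, and ATF6 with siSMAD2/3/4 was 0.00555 with upper-quartile scaling. The cause was not tested.

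Counts moved mainly in SLUG KO. The 581 genes called became 1204 with DESeq2, 973 without a low-count filter, 260 with at least 10 counts in every library and 5277 with voom weights, and 12 members were called higher and 1 lower without WT replicate 2 (5592 genes). Members called higher there were 1 with DESeq2, 1 without a filter and 10 with voom weights. With siSMAD2/3/4, members called higher went from 3 to 7 with upper-quartile scaling. Fewer were called lower with the flow cell as a term, in a fit that rests on siSMAD2/3/4 replicate 3 alone against Csi. Members with their lowest level in MII Ctrl numbered 3 in TPM over all genes, 15 in CPM and 13 in TPM over protein-coding genes. How many of all genes were lowest there was not counted. Of SLUG KO calls, 252 were higher and 329 lower, against 143 and 117 with at least 10 counts in every library and 3013 and 2579 without WT replicate 2.

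Leaving out each library gave 8300 to 9730 genes called in MI-spheres (members higher 15 to 19, lower 5 to 9), 8709 to 9151 in MII-spheres (19 to 21, 3 to 4), 11045 to 11363 between the unstimulated lines (5 to 6, 20 to 23), 3640 to 4750 for the interaction (8 to 14, 2 to 5, the 5 without MI TGFβ replicate 2), 133 to 5592 in SLUG KO (0 to 12, 0 to 1) and 5355 to 6423 with siSMAD2/3/4 (2 to 4, 12 to 14). The 133 was without SLUG KO replicate 1. Leaving out SLUG KO replicate 2 gave 135, SLUG KO replicate 3 gave 139, WT replicate 1 gave 184 and WT replicate 3 gave 378.

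Libraries with the same replicate number were not treated as paired. Their deviations from the group means correlated between -0.295 and 0.110, and in no comparison did every library correlate best with its own number. In MI-spheres 4 of 6 libraries did (correlations 0.0278 to 0.110), against 0 of 6 in each other comparison, so pairing there was not settled. A replicate block gave 19 members higher and 9 lower in MI-spheres, against 18 and 7 without it. A replicate block gave 255 genes in SLUG KO, and 186 with the gene-length trend (62 higher, 124 lower). The block moved no count of members by more than 1.5 times. The 3 libraries per group limit the precision, and DERL3 has too few counts to compare.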
